A study of Sus scrofa with 4 samples.

Results

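Genes of T cells and natural killer (NK) cells were examined in sorted pig lung cells, as a named list of 39 genes looked up by symbol in the deposited count tables. Of these, 36 were found among the 29263 genes of each table. CD7, GZMB and LAT had no row under their symbol or under the identifiers of the name tables used here, and were not analysed here. The animals carried the LGR5-H2B-GFP knock-in, a GFP-tagged histone made under control of LGR5, which encodes a receptor for R-spondins that amplifies Wnt signalling. All 4 libraries carry this genotype, and the groups are the brightly fluorescent sorted cells, called GFP-HI, and the sorted cells lacking fluorescence, called GFP-NEG, with biological replicates 1 and 2 of each. The labels of the libraries give no age, and their protocol covers adult and fetal lung together, while the authors' comparison table is named for adult pigs. It describes a wash of the minced tissue to take out blood and immune cells, and lysis of red cells for adult tissue. GFP-NEG was chosen by absence of the reporter and not by any leukocyte marker, so it holds all cell types of the digest that lack it.

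T cells recognise peptides on MHC proteins through the T cell receptor (TCR), which has no signalling part of its own and relies on the CD3 chains. CD4 and CD8 bring the kinase LCK to the receptor, LCK phosphorylates the CD3 chains, and ZAP70 docks on them and passes the signal on to the adaptors. NK cells lack the TCR and use receptors such as those encoded by KLRK1 and NCR1, but share perforin and granzymes with cytotoxic T cells. Lung tissue holds both kinds of lymphocyte. In pigs, γδ T cells form a large part of the circulating T cells and many NK cells carry CD8α, so that CD8A does not mark cytotoxic T cells alone.

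The GFP-HI libraries held 24200550 and 24689986 counts, the GFP-NEG libraries 6292253 and 7045652. GFP-HI was thus 3.67 times as deep, and depth cannot be told apart from group. The shallower GFP-NEG libraries still had a count in more genes, 24120 and 25985, against 18752 and 18392 in GFP-HI. The part of such low counts in the members' differences was not tested. LGR5, the reporter's own gene, had 3218 and 3073 counts in GFP-HI, against 10 and 7 in GFP-NEG. Lung epithelial genes were present in both fractions, with 371 and 367 CPM summed over 11 genes in GFP-HI, against 831 and 221 in GFP-NEG. CPM are counts in relation to the library's total after scaling by the TMM factor, and values are given with replicate 1 first. Log2 fold changes are GFP-HI minus GFP-NEG from edgeR's quasi-likelihood test with its standard error (SE), and a call means an adjusted p-value under 0.05 (Benjamini-Hochberg over 19682 genes). The titles call the replicates biological and headings of the comparison table name 2 pigs, but no label ties a replicate number to an animal. The p-values therefore rest on the spread between these libraries, and how far that is a spread between animals is not given. In edgeR that spread came from a trend over all genes. A gene's SE and p-value there do not show how well its own replicates agreed.

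Nearly all T and NK cell genes were lower in GFP-HI. In 35 of the 36 genes both GFP-HI libraries lay under both GFP-NEG libraries, an arrangement found in 40.4% of all genes of the table and in 42.0% of those tested, and FOXP3 was the exception. In edgeR, 34 members were lower and 0 higher, and of all genes tested 27.6% were lower and 8.35% higher. All 35 fitted fold changes were below 0, so 0 were higher at an unadjusted p under 0.05 too, and DESeq2 also called 0 higher. The call was missed by CD3G alone of the 35 members tested, and FOXP3 had too few counts to be tested. Of those 35, 11 passed the filter on low counts through the GFP-NEG libraries only and could hardly be called anything but lower. The other 24 were above the filter's level in both GFP-HI libraries too, and 23 of them were lower. The median log2 fold change of the tested members was -3.52, against -0.25 over all genes tested. In sorted bulk RNA, fewer cells of a type and less RNA per cell cannot be told apart.

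The 36 genes together made up 210 and 426 CPM in GFP-HI and 1916 and 3640 CPM in GFP-NEG. The GFP-HI sum was 10.95% of the GFP-NEG sum in replicate 1 and 11.7% in replicate 2. By role it ran from 5.23% (TCR signalling) to 29.2% (co-stimulation and checkpoint) in replicate 1. In replicate 2 it ran from 6.45% (transcription factors) to 17.5% (NK and cytotoxic). A few genes weighed most: PTPRC, at 687 and 1214 CPM in GFP-NEG, and CD3G, CD247, CD27 and NKG7, at 38.9, 29.0, 20.9 and 19.0 CPM in GFP-HI replicate 1. Leaving out single libraries moved the members' median from -2.89 (without GFP-HI replicate 1) to -4.58 (without GFP-HI replicate 2), against -3.00 without GFP-NEG replicate 2 and -3.87 without GFP-NEG replicate 1. The number called lower was 26 without GFP-NEG replicate 2, where 8.98% of all genes were lower, and 27 without GFP-HI replicate 1, where 13.2% were. It was 32 without GFP-HI replicate 2 (12.0% of all genes) and 34 without GFP-NEG replicate 1 (23.3%). With at least 10 counts required in 2 libraries, 33 members were lower, beside 18.0% of the genes then tested. The fits that leave out a library leave a group with 1 library, which is then assumed to vary like the other group.

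**Figure D1:**
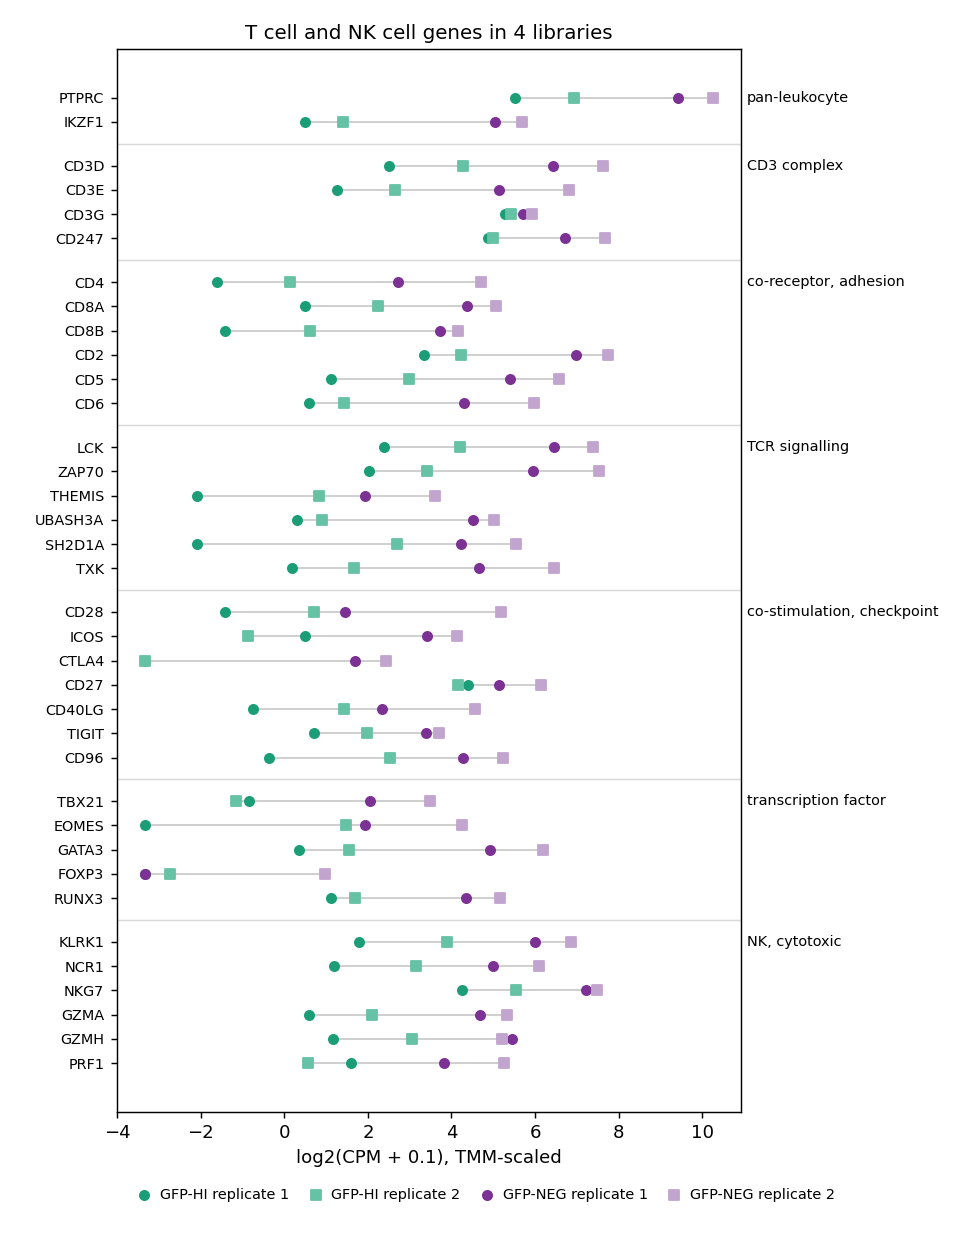
Level of each of the 36 members in the 4 libraries, as log2(CPM + 0.1) on the horizontal axis, ordered by role; circles are replicate 1, squares are replicate 2, green is GFP-HI and purple is GFP-NEG. Green points lie left of purple points in every row except FOXP3, where GFP-HI replicate 1 and GFP-NEG replicate 1 are both at 0, and the gap is narrowest for CD3G.

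PTPRC and IKZF1 are used by leukocytes of all kinds. PTPRC, the gene of the membrane phosphatase CD45, was at 45.9 and 121 CPM in GFP-HI and at 687 and 1214 CPM in GFP-NEG. Both GFP-HI libraries were far under both GFP-NEG libraries, by 15.0-fold within replicate 1 and 10.0-fold within replicate 2. IKZF1, which encodes the lymphoid transcription factor Ikaros, was at 1.31 and 2.53 CPM in GFP-HI and at 32.9 and 51.3 CPM in GFP-NEG. It was called lower (-4.45 ± 0.64, adjusted p of 6.1e-10, edgeR).

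The CD3 chains, which sit beside the TCR and carry its signal, did not move alike. CD3E was at 2.31 and 6.197 CPM in GFP-HI and at 35.1 and 112 CPM in GFP-NEG, and its log2 fold change was -4.11 ± 0.58 (SE; adjusted p of 5.2e-10, edgeR). CD3D was at 5.62 and 19.3 CPM in GFP-HI and at 86.6 and 199 CPM in GFP-NEG (-3.52 ± 0.59, adjusted p of 1.5e-07, edgeR). For both genes the groups were wide apart, by 10.3-fold to 18.04-fold within a replicate. CD247, the ζ chain, which NK cells also use below their activating receptors, was at 29.0 and 31.9 CPM in GFP-HI and at 104 and 205 CPM in GFP-NEG. It was called lower (-2.34 ± 0.57, adjusted p of 2.7e-04, edgeR), and that call was lost without GFP-HI replicate 1 (adjusted p of 0.052), without GFP-HI replicate 2 (0.051) and without GFP-NEG replicate 2 (0.067). CD3G, the γ chain, was at 38.9 and 42.5 CPM in GFP-HI and at 52.2 and 60.95 CPM in GFP-NEG. The groups did not overlap, but the difference was 1.34-fold and 1.43-fold and was not called (-0.47 ± 0.51, adjusted p of 0.51, edgeR).

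CD3G therefore stood apart from the other chains of the same receptor, and its GFP-HI counts were almost equal in both replicates, at 859 and 858. In the RefSeq gene order of the pig assembly Sscrofa11.1, CD3G lies between CD3D and UBE4A, a ubiquitin ligase gene of general use, and the 3 do not overlap. UBE4A had 846 and 907 counts in GFP-HI, against 393 and 731 in GFP-NEG, beside 336 and 556 for CD3G in GFP-NEG. UBE4A was not called either (log2 fold change -0.76, adjusted p of 0.26, edgeR). The strand setting and the extent of the gene models behind the counts are not given in the sources used here, and whether reads of the neighbour were counted for CD3G was not tested.

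The co-receptors and adhesion receptors were all called lower in GFP-HI, 6 of 6 measured, beside 27.6% of all genes tested. CD4 and CD8B passed the filter on low counts through GFP-NEG only and could hardly come out otherwise. CD4, the co-receptor of helper T cells that pig macrophage lineage cells can carry as well, was at 0.227 and 0.991 CPM in GFP-HI and at 6.52 and 26.1 CPM in GFP-NEG (-4.74 ± 0.85, adjusted p of 1.2e-06, edgeR). The counts behind the GFP-HI values were 5 and 20. CD8A was at 1.31 and 4.61 CPM in GFP-HI and at 20.5 and 33.1 CPM in GFP-NEG, 15.6-fold and 7.18-fold lower within the replicates. CD8B, which pairs with CD8A on cytotoxic T cells and is not a usual product of NK cells, was at 0.272 and 1.44 CPM in GFP-HI and at 13.0 and 17.6 CPM in GFP-NEG. Its difference was 48.0-fold in replicate 1, where GFP-HI had 6 counts, and 12.3-fold in replicate 2. CD2, an adhesion receptor of T and NK cells, was at 10.0 and 18.5 CPM in GFP-HI and at 125 and 213 CPM in GFP-NEG, and its within-replicate differences of 12.5-fold and 11.5-fold were close to each other. CD5 and CD6, which dampen TCR signals, had log2 fold changes of -3.79 and -4.37.

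Genes of the first steps of TCR signalling were called lower in 6 of 6 measured, beside 27.6% of all genes tested. SH2D1A and THEMIS passed the filter on low counts through GFP-NEG only and could hardly come out otherwise. LCK, the kinase that phosphorylates the CD3 chains, was at 5.12 and 18.2 CPM in GFP-HI and at 87.6 and 168 CPM in GFP-NEG (-3.45 ± 0.58, adjusted p of 1.5e-07, edgeR). ZAP70, the kinase that docks on the phosphorylated chains, was at 3.94 and 10.6 CPM in GFP-HI and at 62.1 and 184 CPM in GFP-NEG (-4.08 ± 0.59, adjusted p of 1.0e-09, edgeR). Neither gene's groups came near each other. TXK, a kinase of the Tec family, had the lowest fitted fold change in the list apart from CTLA4, at -4.76 ± 0.62 (SE), from 1.04 and 3.07 CPM in GFP-HI and 24.997 and 86.8 CPM in GFP-NEG. UBASH3A, a brake on TCR signalling, was 20.2-fold and 17.9-fold lower within the replicates. SH2D1A, the adaptor SAP of the SLAM receptors, differed between the GFP-HI replicates, with 3 and 129 counts, against 120 and 427 in GFP-NEG. It was called in edgeR (-3.33, adjusted p of 3.4e-06) but not in DESeq2 (adjusted p of 0.18) nor in the authors' deposited table (adjusted p of 0.18), and the edgeR value moved to -2.18 without GFP-HI replicate 1 and to -7.69 without GFP-HI replicate 2. THEMIS, an adaptor of thymocyte selection, had 3 and 34 counts in GFP-HI, against 24 and 110 in GFP-NEG, and its call was lost without GFP-HI replicate 1 (-2.05, adjusted p of 0.15) and without GFP-NEG replicate 2 (-2.07, adjusted p of 0.42). Without GFP-HI replicate 2 the THEMIS value was -5.64.

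All 7 co-stimulatory and checkpoint receptors were called lower, beside 27.6% of all genes tested. Among them, CD28, ICOS, CTLA4, CD40LG and CD96 passed the filter on low counts through GFP-NEG only, so their direction was nearly fixed in advance. CD28, the main co-stimulatory receptor of T cells, was at 0.272 and 1.54 CPM in GFP-HI and at 2.64 and 36.5 CPM in GFP-NEG. Its GFP-NEG replicates differed 13.8-fold, and the call was lost without GFP-NEG replicate 2, where the fold change was -1.58 (adjusted p of 0.64). CTLA4, the inhibitory receptor that competes with CD28, had 0 counts in both GFP-HI libraries and 20 and 48 in GFP-NEG. Set against a floor of 3 counts in GFP-HI, CTLA4 was at least 22.8-fold lower in replicate 1 and 35.4-fold lower in replicate 2. These bounds cover counting error only. The GFP-NEG level of CTLA4, 3.11 and 5.26 CPM, was under that of genes of other organs, described further on. ICOS, a co-stimulatory receptor of activated T cells, was at 1.31 and 0.446 CPM in GFP-HI and at 10.6 and 17.4 CPM in GFP-NEG. CD96, an adhesion receptor of T and NK cells, had 15 and 114 counts in GFP-HI, against 125 and 342 in GFP-NEG. It was called lower (-3.17), with values of -2.17 without GFP-HI replicate 1 and -5.26 without GFP-HI replicate 2, both still called.

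CD40LG, the ligand by which helper T cells reach B cells and macrophages, was at 0.498 and 2.58 CPM in GFP-HI and at 4.97 and 23.5 CPM in GFP-NEG. It was called lower (-3.21), a call lost without GFP-HI replicate 1 (-2.28, adjusted p of 0.085) and without GFP-NEG replicate 2 (-1.73, adjusted p of 0.42). TIGIT, an inhibitory receptor of T and NK cells, was at 1.54 and 3.87 CPM in GFP-HI and at 10.4 and 12.8 CPM in GFP-NEG. Its call (-2.10 ± 0.79, adjusted p of 0.025, edgeR) was lost without GFP-HI replicate 1 (adjusted p of 0.20) and without GFP-NEG replicate 2 (adjusted p of 0.14). CD27, a TNF-receptor family member of T, NK and memory B cells, had the smallest difference among the called members, with 20.9 and 17.7 CPM in GFP-HI and 35.2 and 70.1 CPM in GFP-NEG. Its fold change of -1.45 ± 0.52 (SE; adjusted p of 0.019, edgeR) was not called without either GFP-HI library (adjusted p of 0.13 and 0.20) nor without GFP-NEG replicate 2 (adjusted p of 0.55). TAPBPL, the gene next to CD27 in RefSeq, had 969 and 669 counts in GFP-HI, where CD27 had 462 and 358. In GFP-NEG it had 288 and 643 counts, where CD27 had 227 and 639. Whether reads of TAPBPL were counted for CD27 was not tested.

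Lineage transcription factors were called lower in 4 of 4 tested, beside 27.6% of all genes tested. TBX21 and EOMES passed the filter on low counts through GFP-NEG only and could hardly come out otherwise. GATA3, which directs helper T cells of type 2 and innate lymphoid cells and is also used by some epithelia, was at 1.18 and 2.83 CPM in GFP-HI and at 30.1 and 72.5 CPM in GFP-NEG. Its difference was 25.6-fold in each replicate (-4.68 ± 0.62, adjusted p of 4.4e-11, edgeR). RUNX3, a factor of cytotoxic T and NK cells, was at 2.08 and 3.12 CPM in GFP-HI and at 20.3 and 35.4 CPM in GFP-NEG. TBX21, the gene of T-bet, had 10 and 7 counts in GFP-HI, against 26 and 101 in GFP-NEG, and was not called without GFP-NEG replicate 2 (adjusted p of 0.13). EOMES, its relative in NK and memory cells, had 0 and 54 counts in GFP-HI, against 24 and 174 in GFP-NEG. EOMES was called in edgeR (-3.10, adjusted p of 0.0015) but not in DESeq2 (adjusted p of 0.44), and not without GFP-HI replicate 1 or GFP-NEG replicate 2 (adjusted p of 0.15 and 0.58). FOXP3, the factor of regulatory T cells, had 0 and 1 counts in GFP-HI, against 0 and 17 in GFP-NEG, so nearly all of its counts came from GFP-NEG replicate 2. FOXP3 overlaps CCDC22 in RefSeq, a gene with 461 and 362 counts in GFP-HI, against 107 and 241 in GFP-NEG.

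Receptors and granule proteins of NK and cytotoxic T cells were called lower in 6 of 6 measured, beside 27.6% of all genes tested. KLRK1, which encodes the stress-ligand receptor NKG2D, was at 3.35 and 14.7 CPM in GFP-HI and at 63.5 and 115 CPM in GFP-NEG (-3.31 ± 0.56, adjusted p of 2.4e-07, edgeR). NCR1, which encodes NKp46, a receptor largely restricted to NK cells and related innate cells, was at 2.17 and 8.82 CPM in GFP-HI and at 31.5 and 67.7 CPM in GFP-NEG (-3.18 ± 0.58, adjusted p of 1.5e-06, edgeR). In both genes the GFP-HI replicates differed more than 4-fold, and the higher of them stayed under both GFP-NEG libraries. GZMA, a granzyme, was at 1.40 and 4.16 CPM in GFP-HI and at 25.5 and 40.3 CPM in GFP-NEG. GZMH, another granzyme, was at 2.13 and 8.28 CPM in GFP-HI and at 43.3 and 36.7 CPM in GFP-NEG, the one member whose GFP-NEG level was lower in replicate 2. In RefSeq, GZMH lies next to GZMB, which had no row in these tables, and GZMA has 2 entries, so both granzyme values are uncertain where reads fit more than 1 copy.

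PRF1, the pore-forming protein perforin, was at 2.94 and 1.39 CPM in GFP-HI and at 14.0 and 38.3 CPM in GFP-NEG, and its difference was 4.75-fold in replicate 1 and 27.6-fold in replicate 2. NKG7, a granule membrane protein, was at 19.0 and 46.2 CPM in GFP-HI and at 149 and 180 CPM in GFP-NEG. Its fold change of -2.33 ± 0.58 (SE; adjusted p of 3.2e-04, edgeR) was the smallest of this role, and the call was lost without GFP-HI replicate 1 (-1.68, adjusted p of 0.094). CLDND2, the gene next to NKG7 in RefSeq, had 322 and 745 counts in GFP-HI, where NKG7 had 419 and 932. In GFP-NEG it had 92 and 171 counts, where NKG7 had 960 and 1640. Whether reads of CLDND2 were counted for NKG7 was not tested.

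Within each replicate the GFP-NEG level was divided by the GFP-HI level for members with at least 4 counts in both libraries. Over 31 such members in replicate 1 the median ratio was 15.2, with quartiles of 9.31 and 20.1. Over 34 members in replicate 2 the median was 10.2, with quartiles of 7.16 and 19.7. All genes tested with the same minimum had a median ratio of 0.958 in replicate 1 and 0.936 in replicate 2. In each replicate the smallest ratio was that of CD3G. The ratios of the replicates were farthest apart for PRF1, ICOS, GZMH and CD96.

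**Figure D2:**
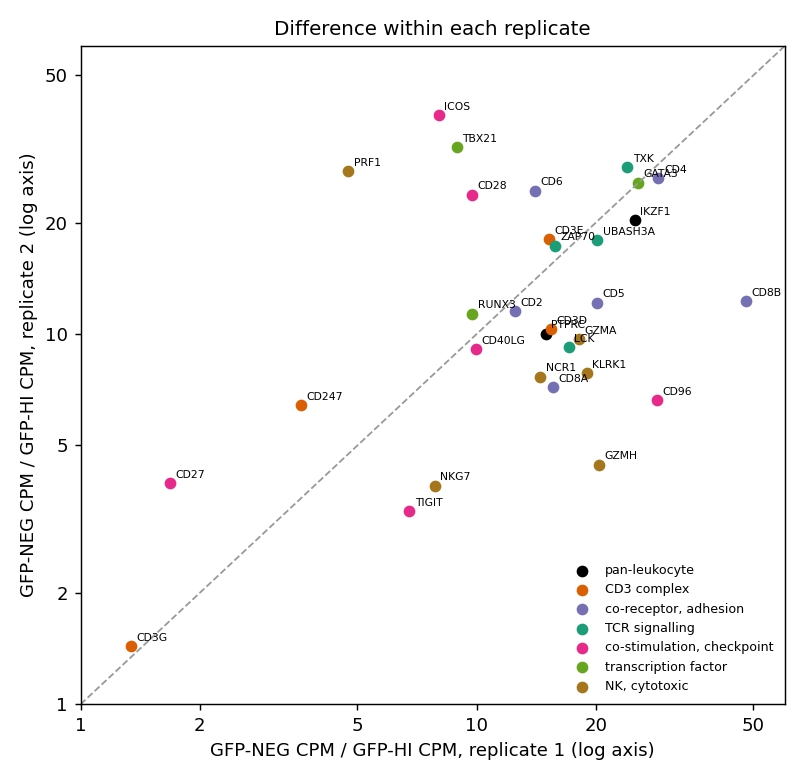
GFP-NEG CPM divided by GFP-HI CPM in replicate 1 (horizontal, log axis) and replicate 2 (vertical, log axis) for each member with at least 4 counts in all 4 libraries, coloured by role; the dashed line marks equal ratios. Most members lie between 5 and 30 on both axes, with CD3G at 1.34 and 1.43 and CD27 at 1.68 and 3.95 at the low end.

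The level of the members also differed between replicates in the same direction in both fractions. In GFP-NEG, 34 of 35 members with at least 4 counts in both libraries were higher in replicate 2, with a median ratio of 1.97. Among the GFP-HI libraries 27 of 31 were higher in replicate 2, with a median ratio of 2.68. The same ratio over all genes tested had a median of 1.08 in GFP-NEG and 0.998 in GFP-HI. CD3G and CD247 were among the members whose GFP-HI level hardly differed between replicates, at ratios of 1.09 and 1.10, and in CD27 it was lower in replicate 2, at 0.848.

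Since PTPRC marks leukocytes as a whole, the members were also expressed per 1000 PTPRC counts of the same library, a ratio that does not depend on depth or scaling. CD3D stood at 122 per 1000 in GFP-HI replicate 1 and 126 in GFP-NEG replicate 1, and at 159 and 164 in replicate 2. LCK stood at 111 and 127 in replicate 1, GFP-HI first, and at 150 and 138 in replicate 2. NCR1 stood at 47.3 and 45.9 in replicate 1 and at 72.9 and 55.8 in replicate 2. In these genes the ratios to PTPRC differed by less than 1.5-fold between the fractions, while the CPM differed 7.68-fold to 17.1-fold. The NCR1 level in GFP-HI replicate 1, 2.17 CPM, was under the level of genes of other organs in that library, 2.65 CPM, which is described further on. Over the members other than PTPRC the GFP-HI ratio divided by the GFP-NEG ratio had a median of 0.977 in replicate 1 (30 genes) and 0.974 in replicate 2 (33 genes).

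Of the 30 members measured this way in both replicates, 9 stayed within 1.5-fold of equality in both, namely CD3D, CD8A, CD2, CD5, LCK, CD40LG, KLRK1, NCR1 and GZMA. A further 5 were at least 1.5-fold higher per PTPRC count in GFP-HI in both replicates, namely CD3G, CD247, CD27, TIGIT and NKG7. CD3G stood at 847 per 1000 PTPRC counts in GFP-HI replicate 1 and at 75.9 in GFP-NEG replicate 1, and at 351 and 50.2 in replicate 2. For CD27 the values were 456 and 51.3 in replicate 1 and 147 and 57.7 in replicate 2. Another 4 members, IKZF1, CD4, TXK and GATA3, were at least 1.5-fold lower per PTPRC count in GFP-HI in both replicates. GATA3 stood at 25.6 and 43.9 in replicate 1 and at 23.3 and 59.7 in replicate 2. The other 12 changed side or left the band in a single replicate. In GFP-HI, CD8A, CD5, CD40LG, NCR1 and GZMA among the 9, TIGIT among the 5 and all of the 4 were not above the level of genes of other organs in both libraries, so their ratios rest on counts not set apart from that background. No test was made of these ratios, and with IKZF1 in place of PTPRC the members' median was 1.65 in replicate 1 and 2.03 in replicate 2.

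The 5 members that were high per PTPRC count in GFP-HI each had, beside them in RefSeq, a gene of another kind with at least 50% of their own GFP-HI counts in both libraries. These were UBE4A beside CD3G, CREG1 and POU2F1 beside CD247, TAPBPL beside CD27, CLDND2 beside NKG7, and ZBTB20 and QTRT2 beside TIGIT. ZBTB20 had 10134 and 4364 counts in GFP-HI, beside 34 and 78 for TIGIT. Among the other 29 members with a place in RefSeq, 16 had such a neighbour as well. The part of neighbouring genes in these counts was not tested.

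**Figure D3:**
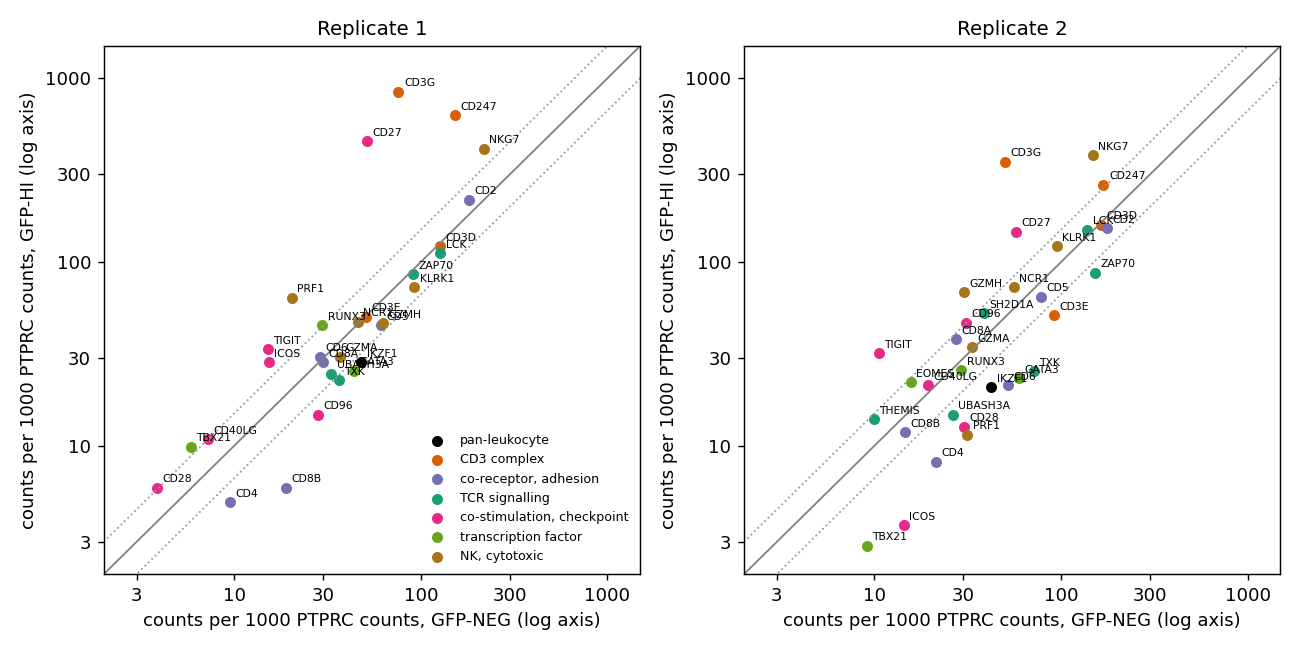
Counts of each member per 1000 PTPRC counts of the same library, in GFP-NEG (horizontal, log axis) and GFP-HI (vertical, log axis), for replicate 1 (left) and replicate 2 (right), for members with at least 4 counts in both libraries of the replicate; the solid line marks equality and the dotted lines 1.5-fold either way. CD3D, LCK, CD2, KLRK1 and NCR1 lie between the dotted lines in both panels, and CD3G, CD27, CD247 and NKG7 lie above them.

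How far the low levels can be read was examined against genes that lung cells are not known to use. The 95th percentile of the annotated odorant receptor genes was 1.366 and 4.89 CPM in GFP-NEG and 0 CPM in both GFP-HI libraries, and 35 of 36 members exceeded it in both GFP-NEG libraries. A second set of 31 genes restricted to other organs, such as liver, pancreas, eye and gonad, written after the data were seen, had a 95th percentile of 7.22 and 6.85 CPM in GFP-NEG and of 2.65 and 4.16 CPM in GFP-HI. In GFP-NEG, 28 members exceeded it in both libraries, and CD28, CD4, CD40LG, CTLA4, EOMES, FOXP3, TBX21 and THEMIS did not. In GFP-HI only 10 members exceeded it in both libraries, PTPRC, CD2, CD3D, CD3G, CD27, CD247, KLRK1, LCK, NKG7 and ZAP70.

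The pathway around the members was followed with 2 further lists. Of 19 other genes of TCR signalling that were tested, 17 were lower, with a median log2 fold change of -3.997. SIT1 (-4.58), SLAMF6 (-4.39) and PTPN7 (-4.37), a TCR-interacting adaptor, a SLAM receptor and a lymphocyte phosphatase, had the lowest values. BCL10, at -0.69, and FYN, at 0.19, were the 2 genes not called, and both are used in many tissues. Of 22 tested genes of effector function, cytokine receptors and NK receptors, 20 were lower, with a median of -3.66. Beside both counts stand the 27.6% of all genes tested that were lower. PDCD1 (-5.15), FASLG (-4.85) and KLRB1 (-4.38) had the lowest values there, and the PDCD1 call was lost without GFP-NEG replicate 2. Among the called genes of TCR signalling, GRAP2, CD226 and BCL11B passed the filter on low counts through GFP-NEG only. On the effector list IL2RA, IL7R, FASLG, KLRB1, KLRG1, PDCD1 and LAG3 did so. All of these could hardly be called anything but lower.

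Other leukocyte lists were read beside these. Of 11 tested B and plasma cell genes 9 were lower, beside 27.6% of all genes tested, with a median of -3.99. FCRLA (-5.00), PAX5 (-4.48) and CD79B (-4.21) fell most. The list also held a gene that rose, EBF1 (1.85), which mesenchymal cells use too, and that call was lost without GFP-HI replicate 2 and without GFP-NEG replicate 2. Of 12 macrophage and monocyte genes 5 were lower, with a median of -1.01, and CD14 (-3.98), CSF1R (-3.08) and C1QB (-1.50) fell most. The C1QB call was lost in DESeq2 and without either GFP-HI library or GFP-NEG replicate 1, among other settings, and the CSF1R call was lost without GFP-HI replicate 2. Within replicate 2 the macrophage median was 0.26, and 5 of 12 of its genes were lower in GFP-HI, whereas all 34 T and NK members with enough counts were lower there. The difference between the lists was not tested.

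The summed levels of the cell-type lists in GFP-NEG also differed between its replicates. The summed CPM of the T and NK members was 1.90 times as high in GFP-NEG replicate 2 as in replicate 1. The corresponding ratio was 1.65 for the B and plasma cell list, 0.380 for macrophages and monocytes, 0.418 for neutrophils, 0.413 for endothelium, 0.266 for epithelium and 0.356 for fibroblasts. In GFP-HI the T and NK ratio was 2.03, against 0.875 for macrophages and monocytes and 0.881 for fibroblasts. Whether these sums reflect cell numbers, and their part in the members' fold changes, was not tested.

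Fibroblast genes ran the other way, as a check of what the bright fraction held. Of 10 tested, 7 were higher in GFP-HI, beside 8.35% of all genes tested. FBLN1 (4.40), DPT (4.09) and LUM (3.96) rose most, and the LUM call was lost without GFP-NEG replicate 2. Summed over the 10 genes, fibroblast CPM was 82455 and 72681 in GFP-HI, against 25442 and 9052 in GFP-NEG. Most of each sum came from COL1A1, COL1A2 and COL3A1, the fibroblast genes that were not called (adjusted p of 0.36, 0.46 and 0.29, edgeR). Of 9 tested endothelial genes 8 were lower, beside 27.6% of all genes tested. The list median was -2.20, and CLDN5 (-2.93), KDR (-2.63) and CDH5 (-2.62) were among the genes called. The CLDN5 call was lost without GFP-HI replicate 2, and the CDH5 call without GFP-HI replicate 2 and without GFP-NEG replicate 1. Of 11 epithelial genes 3 were lower, KRT5 (-2.63), CDH1 (-1.69) and SFTPB (-1.61), with a list median of -1.35. Each of these 3 calls was lost when a library was left out, KRT5 and SFTPB without GFP-HI replicate 1, and CDH1 and SFTPB without GFP-HI replicate 2 and without GFP-NEG replicate 1.

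Neutrophil genes were lower in 4 of 5 tested, with MMP8 (-5.16), MMP9 (-4.99) and CSF3R (-4.35) falling most, and the MMP8 call was lost without GFP-NEG replicate 1. Dendritic cell genes were lower in 3 of 5, namely FLT3 (-5.10), BATF3 (-4.01) and XCR1 (-3.80). On the mast cell list 4 of 5 were lower, among them HDC (-4.45), MS4A2 (-4.39) and HPGDS, which had 0 and 1 counts in GFP-HI, against 26 and 12 in GFP-NEG. The HDC call was lost without GFP-NEG replicate 1 and the HPGDS call without GFP-HI replicate 1. GATA2 (3.17), the fifth on the mast cell list, rose. Of 4 erythroid and platelet genes, HBB was lower. Over all genes tested 27.6% were lower. Some genes of these other lists also passed the filter on low counts through GFP-NEG only and could hardly be called anything but lower. Among those named, they were MMP8, MMP9, FLT3, BATF3, HDC, HPGDS and HBB, besides the genes given above for the pathway lists.

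**Figure D4:**
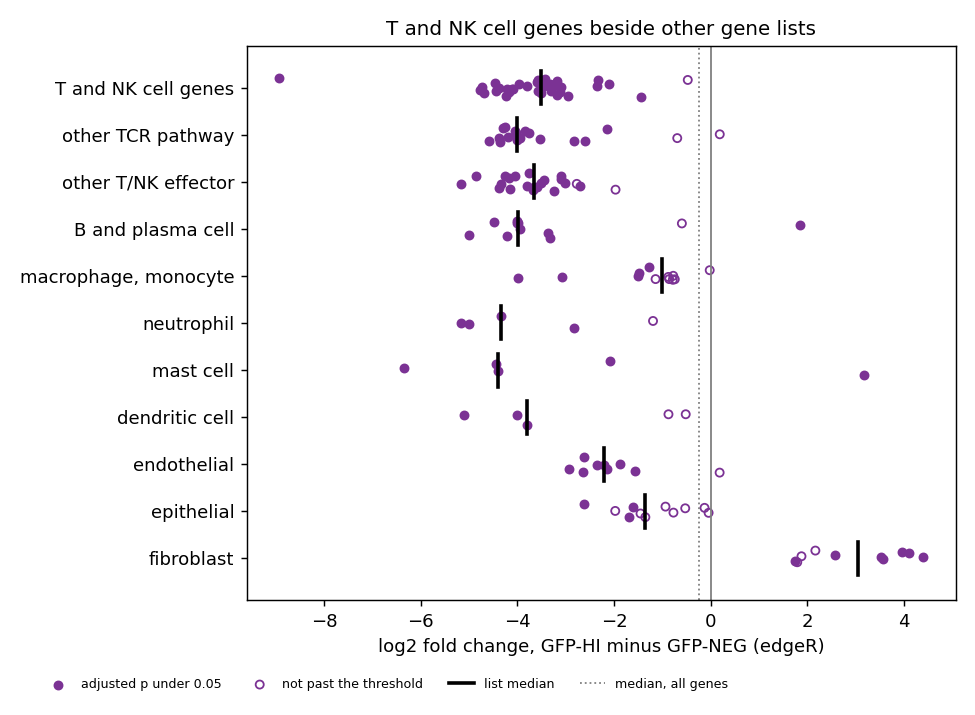
Log2 fold change (GFP-HI minus GFP-NEG, edgeR) of each tested gene in the T and NK cell list and 10 other lists; filled points passed an adjusted p of 0.05, open points did not, bars are list medians and the dotted line is the median of all genes. The T and NK cell median is -3.52 and the fibroblast median 3.05; the point at -8.92 is CTLA4, whose GFP-HI counts are 0 and whose fitted value is no measure of size.

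The authors' deposited table lists 34 of the members. Of these, 31 fall below an adjusted p of 0.05 in the authors' deposited table, each with the lower level in the GFP-bearing cells, where 11.2% of its 16250 genes are lower. CD3G, EOMES and SH2D1A are the members without a call in the authors' deposited table, with log2 fold changes of -0.48, -3.11 and -3.34 and adjusted p-values of 0.49, 0.43 and 0.18.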

How the data were processed

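RNA was sequenced from 4 libraries of sorted pig lung cells. For each library the authors deposited raw gene counts. The submitters' processing notes list featureCounts, Subread 1.5.2 and DESeq2 1.37.6, while aligner, strand setting and genome build are not given in the sources used here. The authors' table of the comparison holds, per the file headers, the same counts, a log2 fold change and a p-value, raw and adjusted. Its 4 columns of normalised values were not used, since headings and counts disagree. Of 844 identifiers with a known symbol, 834 were renamed.

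Counts were fitted with edgeR 4.0.16 (R 4.3.3; glmQLFit and glmQLFTest, TMM, filterByExpr with a minimum of 10, group only), over 19682 genes. The spread was fully moderated (common dispersion 0.239), so each gene took the value of the trend over all genes. SE is the fold change divided by the square root of F. CPM were computed from the counts. In simulated data, 200 of 19682 genes were changed. Of genes changed by 2 on the log2 scale 17.3% were recovered, and of those changed by 4, 75.0%. Far more genes were called in the real data (5433 lower, 1643 higher), so these shares need not hold there.

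The members and lists were chosen with earlier results of these data known. Every member is described, and of each other list up to 3 called genes with the largest rise and fall are named. BCL10, FYN, the neighbours of members and the genes singled out within the ratios were chosen after their values were seen. Gene adjacency was taken from RefSeq (Sscrofa11.1), where 34 members had a single entry. Alternatives were other scalings (RLE, upper quartile, library size), other filters, DESeq2 1.42.0, the replicate block, thinning of GFP-HI and leaving out each library.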

Additional observations from a re-analysis of the deposited data

How the results depend on the processing

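With 2 libraries in a group and the shallow GFP-NEG depth, 1 count in GFP-NEG is worth 0.155 and 0.110 CPM, and floors cover counting error only. Over the 8 alternatives that kept all libraries, 277 of 280 member values kept direction and side of the threshold; SH2D1A and EOMES lost their call in DESeq2, and EOMES with at least 10 counts in 2 libraries. When single libraries were left out, 123 of 140 did so, and the direction of no member reversed under these 12 alternatives. Of the 34 called members, 24 kept their call under each of them. Leaving out each library in turn gave 26 to 34 members lower and medians of -4.58 to -2.89. With library size alone the median was -4.06 and 888 genes of the table were higher (1083 under upper-quartile scaling), against 1643. With at least 10 counts in 2 libraries 3182 genes were lower and 951 higher, and after thinning 3558 were lower, against 5433. With GFP-HI thinned to the GFP-NEG depth, 34 members were lower, beside 21.6% of the genes then tested, and their median was -3.66. Leaving out single libraries gave 1575 to 4999 lower and 216 to 1635 higher genes. With IKZF1 as the denominator the median ratio was 1.65 (replicate 1) and 2.03 (replicate 2), against 0.985 and 1.00 over the same genes. The cause of these shifts was not tested.

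The labels share replicate numbers, but no label says that a number marks an animal. Over 19682 genes, deviations of same-numbered libraries correlated with an r of 0.160. With the replicate block 34 members were lower, as without it, their median was -3.67, and 4793 genes were lower and 1707 higher over the table. The block changed no call of a member.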
